A study of Homo sapiens with 24 samples.

Results

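The 10 genes described here encode secreted inflammatory proteins associated with differentiation syndrome: CCL2, CCL3, CCL4, CXCL2, CXCL8, CXCL10, IL1B, TNF, LIF and IL1RN. They were taken by name from a count table of 60655 genes, and all 10 were found. The study measured polyadenylated RNA in 24 libraries from 2 established leukaemia cell lines, both of wild-type genotype per the labels. NB4 is an acute promyelocytic leukaemia (APL) line that carries the PML-RARA fusion, and HL-60 is labelled as promyeloblast and stands in the study as its non-APL acute myeloid leukaemia line. In each line the groups were untreated cells, cells given all-trans retinoic acid (ATRA, 1 µM), cells given arsenic trioxide (ATO, 0.8 µM), and cells given both drugs, with 48 h stated for the treated cells. Doses within the combination, and the culture time of untreated cells, are not stated in the labels. Each group held 3 libraries, numbered as batches 1 to 3 in the labels. Separate cultures are not mentioned, so the tests measure the spread between these libraries, which may be technical, and each kind of leukaemia is represented by 1 cell line.

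ATRA and ATO are used together against APL because ATRA drives leukaemic promyelocytes toward neutrophil-like cells and ATO degrades the fusion protein. Differentiation syndrome is the inflammatory complication of that treatment, in which maturing leukaemic cells enter the lungs and other tissues. Chemokines released by the maturing cells draw further leukocytes along a gradient, IL-1 beta and TNF activate endothelium, and the IL-1 receptor antagonist blocks the receptor that IL-1 beta uses.

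Library totals ran from 37811652 to 57795273 counts. Levels below are counts-per-million (CPM) of the library total, with SD over the 3 libraries of a group. Changes are log2 ratios ± SE from edgeR's quasi-likelihood test, with p-values adjusted by Benjamini-Hochberg over all genes tested, and a gene was called at an adjusted p below 0.05. Folds are ratios of mean CPM and so are scaled by library totals alone. The log2 changes also use edgeR's TMM scaling factors, so a fold and the log2 change beside it can differ in size. Where the lower group held 1 to 9 reads, the fold is instead the ratio of the groups' summed counts over their summed library totals, with a 95% exact counting interval, and where it held 0 reads the fold is a bound against a floor of 3 reads per library. Both cover counting error only and treat each count as a separate read. Low counts were mostly even, so mates may have been counted separately, and the intervals would then be too narrow. In bulk RNA, fewer cells of a type and less RNA per cell cannot be told apart. The comparisons with untreated cells share their control libraries, and the step from ATRA to the combination shares the ATRA libraries with the ATRA comparison.

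The lines were checked against myeloid markers. MPO, the peroxidase of promyelocyte granules, stood at 8973 to 9631 CPM in untreated NB4 and at 2102 to 2308 CPM in untreated HL-60. ELANE, the neutrophil elastase gene, was at 0.129 to 0.288 CPM in untreated NB4, so this defining promyelocyte marker was nearly absent there, and at 150 to 180 CPM in untreated HL-60. The erythroid markers HBB, HBA1 and ALAS2 were at 0 in each of the 24 libraries.

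In NB4, ATRA raised 7 of the 10 genes (CCL2, CCL3, CCL4, CXCL8, CXCL10, IL1B and LIF) and lowered TNF. The median change of the 10 was 4.75 on the log2 scale, against 0.03 for all genes, and among all genes tested 31.3% were called higher and 28.6% lower. In HL-60, where CXCL10 had too few reads to be tested, ATRA raised 6 of 9 (CCL2, CCL3, CCL4, CXCL8, IL1B and LIF) and lowered TNF and IL1RN, beside 25.2% of all genes higher and 23.3% lower. ATO alone raised CCL2, CXCL8 and IL1B in NB4, where 21.2% of all genes were called higher, and the same 3 genes plus CCL3 in HL-60, where 16.5% were. ATO lowered none of the genes tested in either line, beside 19.6% of all genes called lower in NB4 and 12.1% in HL-60. CXCL2 was not called in any of the 17 comparisons made with all libraries. Leaving out single libraries could give a call for the NB4 combination against untreated and against ATO.

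**Figure D1:**
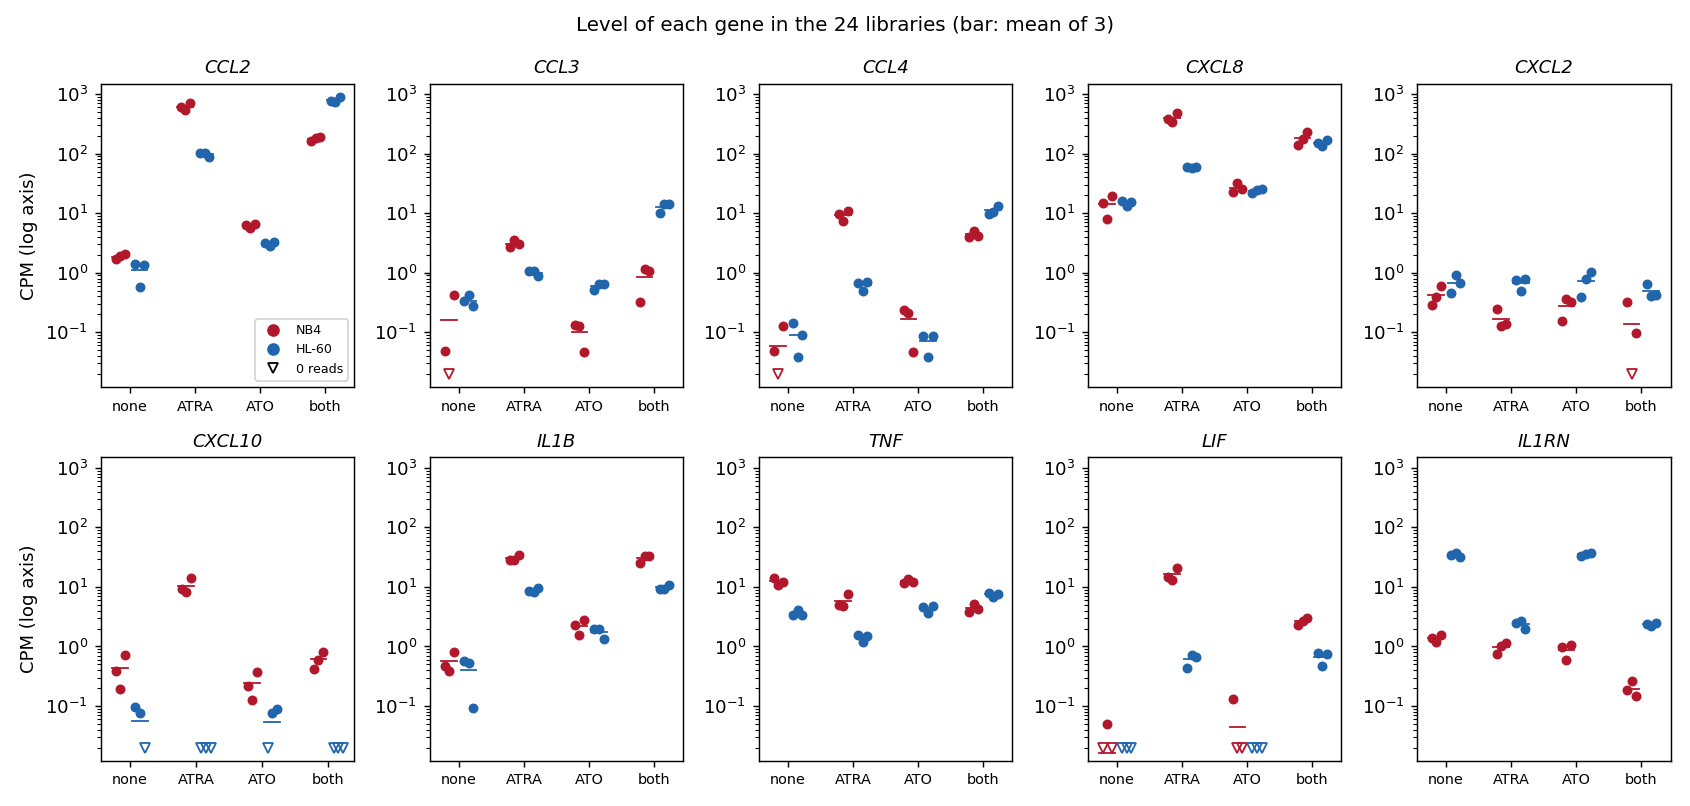
Level of each of the 10 genes in the 24 libraries, in CPM on a log axis, for NB4 (red) and HL-60 (blue) by treatment; horizontal bars are means of 3 libraries and open triangles are libraries with 0 reads. CCL2 and CXCL8 had the highest mean CPM of the 10 with ATRA and with both drugs in each line, IL1RN was high in untreated and ATO-treated HL-60, and CXCL2 showed no separation by treatment in HL-60.

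The CC chemokines act mainly on monocytes. CCL2 (chromosome 17, 34255218 to 34257203, plus strand, GRCh38 with GENCODE v29) encodes the ligand of CCR2 that recruits monocytes. In NB4 it was at 1.68, 1.92 and 2.03 CPM in the untreated libraries, at 607, 549 and 701 with ATRA, at 6.22, 5.56 and 6.59 with ATO, and at 161, 185 and 190 with both drugs. None of these groups overlapped: the highest level was with ATRA alone, and the combination lay below it. The rise was 330-fold with ATRA (8.43 ± 0.13, edgeR adjusted p = 1.35e-22), 3.27-fold with ATO (1.60 ± 0.14, edgeR adjusted p = 7.64e-09) and 95.4-fold with the combination (6.49 ± 0.12, edgeR adjusted p = 3.11e-21).

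HL-60 had the reverse order at the top. CCL2 was at 1.39, 0.566 and 1.37 CPM untreated, at 101, 101 and 88.8 with ATRA, at 3.14, 2.83 and 3.30 with ATO, and at 753, 742 and 890 with both drugs. The combination libraries were the highest of all 24 for this gene, above the NB4 ATRA libraries. Against untreated HL-60 the rise was 87.7-fold with ATRA (6.54 ± 0.14), 2.79-fold with ATO (1.5 ± 0.20) and 718-fold with both (9.61 ± 0.14), each called.

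CCL3 and CCL4 encode chemokines that attract monocytes and T cells, and they lie near each other on chromosome 17 (36088256 to 36090169, minus strand, and 36103590 to 36105621, plus strand). CCL4 in NB4 was at 0.0479, 0 and 0.129 CPM untreated, at 9.58, 7.52 and 11.1 with ATRA, at 0.241, 0.214 and 0.0466 with ATO, and at 4.03, 4.98 and 4.22 with both drugs. The ATRA and combination groups stood clear of the untreated and ATO groups and of each other. The fold against untreated NB4 was 152 with ATRA (76.8 to 353) and 71.5 with the combination (36.0 to 166). Without batch 3 of untreated NB4 the fitted changes went from 7.25 to 8.49 with ATRA and from 6.01 to 7.28 with the combination. In HL-60 it was at 0.144, 0.0377 and 0.0912 CPM untreated, at 0.663, 0.484 and 0.711 with ATRA, at 0.0855, 0.038 and 0.0879 with ATO, and at 9.62, 10.4 and 13.3 with both. The HL-60 combination was 122-fold above untreated (7.04 ± 0.30), against 6.82-fold with ATRA (2.83 ± 0.39), and ATO alone was not called (-0.34 ± 0.61).

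CCL3 was low in untreated cells as well. NB4 had it at 0.0479, 0 and 0.431 CPM untreated, at 2.67, 3.52 and 3.00 with ATRA, at 0.131, 0.128 and 0.0466 with ATO, and at 0.322, 1.17 and 1.06 with both drugs. HL-60 had it at 0.335, 0.415 and 0.274 CPM untreated, at 1.07, 1.07 and 0.878 with ATRA, at 0.513, 0.646 and 0.659 with ATO, and at 9.93, 14.1 and 14.2 with both. Batch 3 of untreated NB4 lay apart from the rest of its group. With it, the ATRA change in NB4 was 4.24 ± 0.62, and without it the value was 6.88; for the combination the values were 2.26 ± 0.65 and 4.91. The HL-60 changes were 1.59 ± 0.26 with ATRA, 0.79 ± 0.28 with ATO (edgeR adjusted p = 0.039) and 5.28 ± 0.22 with both. The ATO call was lost without any of 4 single libraries, batches 1 and 3 of untreated HL-60 and batches 2 and 3 of ATO-treated HL-60, with adjusted p from 0.090 to 0.145. It was also lost in an alternative that left out no single library.

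CCL3 and CCL4 have near-identical copies, between which reads can be split. The copy CCL3L3 (named CCL3L1 in GENCODE v29) was at 0.729 ± 0.039 CPM in untreated NB4, 4.15 ± 0.85 with ATRA, 0.516 ± 0.046 with ATO and 2.40 ± 0.29 with both. Summed over CCL3 and this copy, the means were 0.889, 7.21, 0.618 and 3.25 CPM in NB4, and 0.389, 1.08, 0.820 and 16.6 CPM in HL-60, in the order untreated, ATRA, ATO and combination. Summed over CCL4 and its copy CCL4L2 they were 0.218, 15.1, 0.333 and 7.74 CPM in NB4, and 0.106, 0.742, 0.248 and 15.9 CPM in HL-60. The sums kept the order of the ATRA and combination groups in each line: ATRA above the combination in NB4, and the combination above ATRA in HL-60. The sizes were not kept. In untreated NB4 the copy CCL3L3 stood above CCL3 itself (0.729 against 0.160 CPM). The rises of the CCL3 sum over untreated NB4, with ATRA and with the combination, were therefore smaller than those of CCL3 alone.

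The CXC chemokines act on neutrophils (CXCL8 and CXCL2, through CXCR1 and CXCR2) or on activated T cells (CXCL10, through CXCR3). All 3 genes lie on chromosome 4. Sequence before their start sites is shown with those matches to 5 short motifs that fall within it. Further matches of CXCL2 lie closer to its start than the bases shown, and are given below. Whether the motifs bear on the responses was not tested. The sequences are from RefSeq (GRCh38.p14), are written 5′ to 3′ on the gene's own strand, end before both the RefSeq and the GENCODE v29 start, and carry the motif matches in capitals.
CXCL8, chr4:73740319-73740505, plus strand: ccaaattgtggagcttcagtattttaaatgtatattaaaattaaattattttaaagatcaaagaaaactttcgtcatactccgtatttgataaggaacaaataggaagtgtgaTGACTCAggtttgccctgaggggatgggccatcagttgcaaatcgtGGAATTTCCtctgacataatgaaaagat
CXCL10, chr4:76023498-76023747, minus strand: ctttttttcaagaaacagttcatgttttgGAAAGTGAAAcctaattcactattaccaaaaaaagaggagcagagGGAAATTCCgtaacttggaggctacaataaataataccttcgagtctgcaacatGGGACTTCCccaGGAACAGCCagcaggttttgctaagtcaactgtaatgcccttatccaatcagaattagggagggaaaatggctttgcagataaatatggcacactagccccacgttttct
CXCL2, chr4:74099294-74099445, minus strand: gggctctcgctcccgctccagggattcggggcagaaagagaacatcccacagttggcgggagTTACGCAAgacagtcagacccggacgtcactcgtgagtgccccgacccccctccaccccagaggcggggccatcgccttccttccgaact

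The motifs were searched on both strands of the window from 250 bases before to 50 bases after each RefSeq start. They were a loose kappa B pattern GGNNNTTCC, the AP-1 pattern TGANTCA, the C/EBP pattern TTNNGCAA, the interferon response pattern of GAAA, any 2 bases and GAAA, and the retinoic acid response pattern of AGGTCA repeated after any 5 bases. Of 35116 such windows in the table, 20.1% held the first, 7.71% the second, 10.5% the third and 3.57% the fourth, and 2 windows held the last. CXCL8 had 1 AP-1 match and 1 kappa B match, and CXCL10 had 3 kappa B matches and 1 interferon response match. The CXCL2 window had, beside the C/EBP match shown, 2 kappa B matches nearer its RefSeq start. The windows of CXCL8, CXCL10 and CXCL2 held no retinoic acid match, which says only that these letters are not in these windows, and the TNF window held none of the 5 patterns. Of the 10 genes 7 were matched in the table; CCL2, CCL4 and LIF were not.

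CXCL8 (73740506 to 73743716, plus strand) encodes interleukin 8, the main neutrophil attractant. In NB4 it was at 15.0, 8.04 and 19.4 CPM untreated, at 386, 338 and 485 with ATRA, at 22.3, 32.5 and 25.0 with ATO, and at 140, 175 and 229 with both drugs. The 4 groups did not overlap. The rise against untreated was 28.4-fold with ATRA (4.89 ± 0.23, edgeR adjusted p = 4.61e-14), 1.88-fold with ATO (0.80 ± 0.22, edgeR adjusted p = 0.0057) and 12.8-fold with both (3.59 ± 0.22, edgeR adjusted p = 2.97e-12).

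In HL-60, CXCL8 was at 16.2, 13.5 and 15.2 CPM untreated, at 60.2, 58.1 and 59.9 with ATRA, at 22.1, 24.4 and 25.4 with ATO, and at 152, 133 and 171 with both drugs. Again no group overlapped another, and the combination was the highest. The rises were 3.98-fold (2.04 ± 0.08), 1.60-fold (0.67 ± 0.09) and 10.2-fold (3.43 ± 0.09) in the order ATRA, ATO and combination, each called. The combination levels of the lines overlapped, while with ATRA alone NB4 was clear above HL-60.

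CXCL10 (76021117 to 76023497, minus strand) is best known as an interferon-induced gene. In NB4 it was at 0.383, 0.197 and 0.733 CPM untreated, at 9.08, 8.10 and 14.3 with ATRA, at 0.219, 0.128 and 0.373 with ATO, and at 0.414, 0.603 and 0.820 with both drugs. The ATRA group stood alone, and the combination overlapped the untreated group. ATRA raised it 24.0-fold (4.62 ± 0.34, edgeR adjusted p = 1.03e-10; 5.22 without batch 3 of untreated NB4); with the combination the change was 0.37 ± 0.41 and was not called (edgeR adjusted p = 0.44). ATO alone gave -1.01 ± 0.48 (edgeR adjusted p = 0.099), which was called when the batch entered the model as a block (-0.96, edgeR adjusted p = 0.035). In HL-60 the reads summed over 3 libraries were 8 untreated, 0 with ATRA, 8 with ATO and 0 with both, at or near the floor of 0.0519 to 0.0793 CPM that 3 reads make in these libraries, so no change was testable. CXCL10 lies within the span of ART3 on the opposite strand, ART3 had at most 89 counts in any library, and the strandedness of the counting is not given in the sources used here.

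CXCL2 (74097035 to 74099293, minus strand), another CXCR2 ligand, was at most 0.603 CPM in any NB4 library and at most 1.01 CPM in any HL-60 library. Its group means ran from 0.140 to 0.428 CPM in NB4 and from 0.495 to 0.731 CPM in HL-60. The change with ATRA was -1.25 ± 0.76 in NB4 and 0.03 ± 0.42 in HL-60. With the combination it was -1.71 ± 0.77 in NB4 (edgeR adjusted p = 0.055, 95% interval -3.50 to 0.07) and -0.40 ± 0.44 in HL-60. Without single libraries the NB4 value ranged from -3.24 to -1.11 (edgeR adjusted p from 0.0069 to 0.199). For the NB4 combination against ATO it ranged from -2.52 to -0.40 (edgeR adjusted p from 0.039 to 0.691). The step from ATRA to the combination in NB4 was -0.46 ± 0.83 with a 95% interval of -2.38 to 1.46, so at this depth it stayed imprecise.

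**Figure D2:**
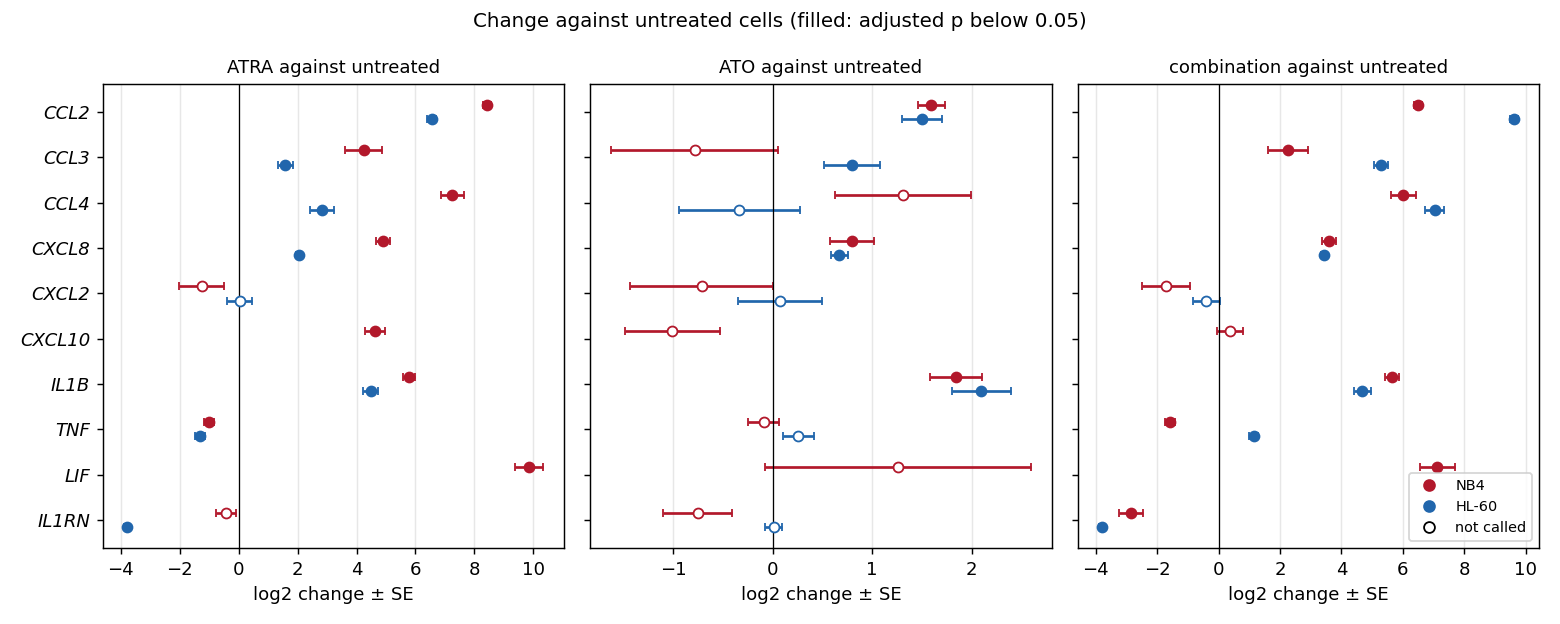
Log2 change ± SE against untreated cells for each gene and treatment (edgeR, 3 libraries per group), NB4 in red and HL-60 in blue, filled where called; the 3 panels have different scales, and changes that involve a group with 0 reads (LIF and CXCL10 in HL-60) are not drawn. CCL2, CCL4, CXCL8 and IL1B rose with ATRA and with the combination in both lines, while TNF fell with the combination in NB4 and rose in HL-60.

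Among the cytokines, IL1B (chromosome 2, 112829751 to 112836903, minus strand) encodes IL-1 beta, which is made as an inactive precursor. In NB4 it was at 0.479, 0.394 and 0.819 CPM untreated, at 27.9, 28.2 and 34.6 with ATRA, at 2.32, 1.58 and 2.80 with ATO, and at 25.1, 33.0 and 33.2 with both drugs. In HL-60 it was at 0.574, 0.528 and 0.0912 CPM untreated, at 8.40, 8.24 and 9.58 with ATRA, at 1.95, 1.94 and 1.36 with ATO, and at 9.22, 9.41 and 10.9 with both. In both lines the ATRA and combination groups overlapped each other and stood clear above ATO, which stood clear above untreated. The rises with ATRA were 53.6-fold in NB4 (5.78 ± 0.22) and 22.0-fold in HL-60 (4.47 ± 0.26), and those with ATO were 3.96-fold (1.84 ± 0.26) and 4.40-fold (2.10 ± 0.30), each called.

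TNF (chromosome 6, 31575567 to 31578336, plus strand) was the member that fell with ATRA in both lines. NB4 had it at 14.2, 10.8 and 12.2 CPM untreated, at 5.03, 4.85 and 7.74 with ATRA, at 11.5, 13.8 and 12.3 with ATO, and at 3.80, 5.14 and 4.24 with both drugs. In HL-60 it was at 3.35, 4.07 and 3.33 CPM untreated, at 1.54, 1.21 and 1.51 with ATRA, at 4.58, 3.65 and 4.83 with ATO, and at 8.07, 6.82 and 7.67 with both. The ATRA groups lay below the untreated groups without overlap, and the combination lay below untreated in NB4 and above it in HL-60. The changes with ATRA were -1.01 ± 0.17 in NB4 (edgeR adjusted p = 1.68e-05) and -1.30 ± 0.17 in HL-60 (edgeR adjusted p = 1.23e-06). With the combination they were -1.57 ± 0.17 in NB4 (edgeR adjusted p = 2.82e-08) and 1.14 ± 0.15 in HL-60 (edgeR adjusted p = 9.63e-07).

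LIF (chromosome 22, 30240447 to 30246851, minus strand), a cytokine of the IL-6 family named for its effect on myeloid leukaemia cells, was close to silent without ATRA. Levels in NB4 were 0, 0.0492 and 0 CPM untreated, 14.9, 13.1 and 20.9 with ATRA, 0.131, 0 and 0 with ATO, and 2.30, 2.73 and 3.06 with both drugs. The NB4 fold was 1055 with ATRA (292 to 8717) and 173 with the combination (47.7 to 1438), both against 2 reads in all. Both reads were in batch 2 of untreated NB4; without that library the fitted changes went from 9.86 to 12.57 and from 7.12 to 9.85, against a group at 0. In HL-60 it had 0 reads in the 6 untreated and ATO libraries, was at 0.428, 0.727 and 0.669 CPM with ATRA and at 0.788, 0.464 and 0.741 with both. It was at least 9.27-fold higher with ATRA and at least 10.1-fold higher with both drugs, and both changes were called. The ATRA level was higher in NB4 than in HL-60 without overlap.

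IL1RN (chromosome 2, 113107214 to 113134016, plus strand), which encodes the IL-1 receptor antagonist, followed another pattern. In HL-60 it was at 34.1, 37.2 and 31.9 CPM untreated, at 2.52, 2.70 and 1.97 with ATRA, at 33.1, 35.2 and 37.0 with ATO, and at 2.42, 2.22 and 2.43 with both drugs. The 6 libraries with ATRA were low and the 6 without it were high. The fall was 14.4-fold with ATRA (-3.79 ± 0.11, edgeR adjusted p = 4.06e-18) and 14.6-fold with both (-3.79 ± 0.11, edgeR adjusted p = 3.49e-18).

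In NB4, IL1RN was at 1.39, 1.18 and 1.55 CPM untreated, at 0.740, 1.01 and 1.15 with ATRA, at 0.963, 0.599 and 1.07 with ATO, and at 0.184, 0.261 and 0.145 with both. The combination group lay below the other groups, while the single drugs gave -0.44 ± 0.34 and -0.76 ± 0.34, neither called. The change with both drugs was -2.85 ± 0.40 (edgeR adjusted p = 1.53e-06). The antagonist and its opponent thus moved in opposite directions with the combination in both lines: IL1B rose 54.0-fold in NB4 and 24.7-fold in HL-60, and IL1RN fell 6.99-fold and 14.6-fold.

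What ATO added to ATRA differed between the lines. In NB4, 8 of the 10 genes were lower with the combination than with ATRA alone and none was higher, beside 21.2% of all genes tested called lower and 16.8% called higher; the median was -1.62 for the 10 and -0.01 for all genes. Of the genes called over the whole table in NB4, 44.3% were higher, and 68.4% were higher when libraries were scaled by their totals alone, under which 7 of the 10 stayed called, all lower. In HL-60, 5 of 9 were higher and none was lower, beside 22.0% and 21.9% of all genes; the median was 1.39 for the 9 and -0.01 for all genes.

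CXCL10 had the steepest drop in NB4, 17.2-fold (-4.25 ± 0.33, edgeR adjusted p = 2.15e-09). LIF fell 6.03-fold (-2.74 ± 0.24), IL1RN 4.92-fold (-2.41 ± 0.41), CCL2 3.46-fold (-1.94 ± 0.09), CXCL8 2.22-fold (-1.30 ± 0.20) and CCL4 2.13-fold (-1.23 ± 0.23), all without overlap of the groups. CCL3 fell 3.61-fold (-1.98 ± 0.51, edgeR adjusted p = 0.0041), also without overlap, and was not called by DESeq2 (adjusted p = 0.10). TNF fell 1.34-fold (-0.56 ± 0.17, edgeR adjusted p = 0.014) with overlapping groups and was lower in 2 of 3 batches. The TNF call was lost with library sizes alone (adjusted p = 0.057), without batch 3 of ATRA-treated NB4 (adjusted p = 0.161), and without batch 1 or 3 of the combination (0.081 and 0.054). IL1B was not called (-0.14 ± 0.14, 95% interval -0.46 to 0.19).

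In HL-60 the same step raised CCL4 18.0-fold (4.21 ± 0.23, edgeR adjusted p = 1.16e-12), CCL3 12.7-fold (3.69 ± 0.19, edgeR adjusted p = 4.06e-13) and CCL2 8.18-fold (3.07 ± 0.09, edgeR adjusted p = 2.35e-17). TNF rose 5.30-fold (2.45 ± 0.17) and CXCL8 2.56-fold (1.39 ± 0.08), both called. In these 5 genes the combination lay above ATRA in all 3 batches with no overlap. IL1B (0.21 ± 0.19, interval -0.22 to 0.64), LIF (0.15 ± 0.52, interval -1.06 to 1.36), IL1RN (0.00 ± 0.14, interval -0.31 to 0.32) and CXCL2 (-0.43 ± 0.44) were not called.

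**Figure D3:**
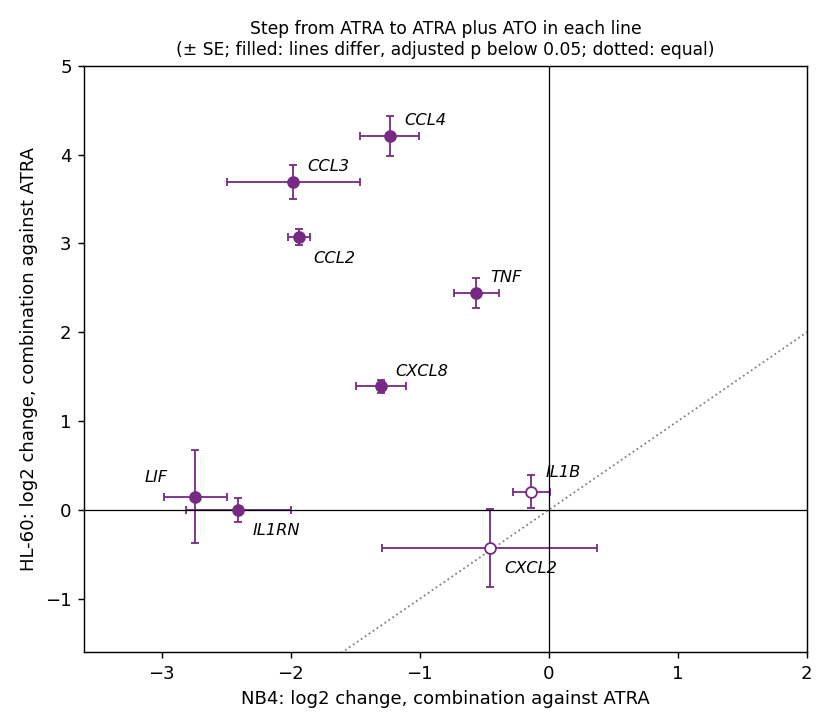
Log2 change from ATRA to the combination in NB4 (horizontal) and HL-60 (vertical) for the 9 genes tested in both lines, with SE from edgeR; filled points differed between the lines and the dotted line marks equal change. CCL2, CCL3, CCL4, CXCL8 and TNF lie at the upper left, lower in NB4 and higher in HL-60, and IL1B and CXCL2 lie near the line of equal change.

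The difference between the lines in that step was itself tested in a fit of all 24 libraries, a comparison added after the data had been seen. It was called for 7 of the 10 genes, all in the direction of a lower NB4 response, where 16.0% of all genes were called in that direction and 15.3% in the other. The differences were -4.97 ± 0.14 for CCL2 (edgeR adjusted p = 1.69e-21), -5.64 ± 0.51 for CCL3, -5.41 ± 0.35 for CCL4, -2.65 ± 0.24 for CXCL8, -2.97 ± 0.25 for TNF, -2.83 ± 0.47 for LIF and -2.37 ± 0.34 for IL1RN. IL1B differed by -0.31 ± 0.24, which was not called (interval -0.82 to 0.21). For CXCL10 no size can be given, because both HL-60 groups held 0 reads.

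Against ATO alone, the combination was higher for 7 genes and lower for TNF and IL1RN in NB4, beside 28.6% of all genes higher and 28.3% lower. In HL-60 it was higher for 7 genes and lower for IL1RN, beside 27.5% and 27.0%. TNF therefore had opposite signs in the lines, at -1.48 ± 0.17 in NB4 and 0.89 ± 0.15 in HL-60. CXCL10 in NB4 was at 1.38 ± 0.45 (edgeR adjusted p = 0.013), a call lost without batch 2 of ATO (adjusted p = 0.072) or batch 3 of the combination (adjusted p = 0.072). LIF in NB4 was at 5.86 ± 0.48, and at 9.82 without batch 1 of ATO, the ATO library that held LIF reads.

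The interaction asks whether the combination differed from the sum of the separate drug changes on the log2 scale. In NB4 it was negative and called for 6 of 10 genes and positive for none, beside 12.5% and 6.14% of all genes. The values were -3.53 ± 0.16 for CCL2, -3.24 ± 0.62 for CXCL10, -2.54 ± 0.72 for CCL4, -2.10 ± 0.29 for CXCL8, -1.98 ± 0.30 for IL1B and -1.65 ± 0.53 for IL1RN. The CCL4 call (edgeR adjusted p = 0.015) was lost without batch 2 of untreated NB4, or batch 1 or 2 of ATO (adjusted p = 0.052, 0.084 and 0.062), and the value was -3.78 without batch 3 of untreated NB4. The same library moved CXCL10 to -3.83 when left out. LIF was at -4.00 ± 1.42 and not called (edgeR adjusted p = 0.053). Its value rests on a few reads: it was -0.040 (adjusted p = 0.777) without batch 1 of ATO-treated NB4 and -6.70 (adjusted p = 0.034) without batch 2 of untreated NB4, and DESeq2 called it over all libraries (adjusted p = 0.0058). The IL1RN call (edgeR adjusted p = 0.033) was lost under the batch block (-1.62, edgeR adjusted p = 0.052) and without any of 7 of the 12 libraries (adjusted p from 0.064 to 0.088): batches 1 and 2 untreated, 3 of ATRA, 1 and 3 of ATO, and 1 and 3 of the combination.

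In HL-60 the interaction was positive and called for 5 of 9 genes, CCL2 (1.57 ± 0.24), CCL3 (2.90 ± 0.36), CCL4 (4.55 ± 0.72), CXCL8 (0.72 ± 0.11) and TNF (2.19 ± 0.23), beside 14.4% of all genes. It was negative for IL1B (-1.89 ± 0.36), beside 18.1%. IL1B thus had a negative interaction in both lines, close to the size of the ATO change alone. CCL2, CCL4 and CXCL8 had called interactions of opposite sign in the 2 lines.

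The log2 change with ATRA alone was more positive in NB4 than in HL-60 for 7 of 10 genes and more negative for none, beside 17.7% and 16.8% of all genes called either way. The differences were 4.41 ± 0.86 for CCL4, 3.34 ± 0.25 for IL1RN (where HL-60 fell and NB4 was not called), 2.84 ± 0.26 for CXCL8, 2.62 ± 0.69 for CCL3, 1.88 ± 0.26 for CCL2 and 1.30 ± 0.44 for IL1B. CXCL10 was called as well (edgeR adjusted p = 0.00013), with no size given because ATRA-treated HL-60 held 0 reads. It counts among the 7, but it failed the filter in HL-60 alone and entered this fit through its NB4 reads. That call therefore rests on the rise in NB4, since no HL-60 response could be measured. Without batch 3 of untreated NB4 the CCL3 difference was 5.28 and that of CCL4 was 5.65. The IL1B call was lost without batch 1 or 2 of either untreated group (adjusted p from 0.055 to 0.161). TNF differed by 0.28 ± 0.25, not called.

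For the combination against untreated cells, 6 genes rose and 2 fell in NB4 (35.4% and 32.8% of all genes), and 7 rose and 1 fell in HL-60 (30.7% and 29.7%). The line difference was called for CCL2 (-3.10 ± 0.25), TNF (-2.69 ± 0.24), CCL3 (-3.01 ± 0.76), IL1RN (0.97 ± 0.37) and CXCL10, of which 3 were lower in NB4 and 2 higher, beside 22.7% and 24.9%. The CXCL10 call is not read as a difference: NB4 was not called, and HL-60 held 8 reads untreated and 0 with both drugs. The CCL3 difference rested on 1 library: without batch 3 of untreated NB4 it was -0.36 (edgeR adjusted p = 0.95). That library held 20 of the 22 CCL3 reads of its group. The IL1RN call was lost without batch 2 of untreated NB4 or batch 1 or 2 of the NB4 combination (adjusted p from 0.055 to 0.267), and the CXCL10 call (edgeR adjusted p = 0.042) without any of 9 single libraries, 4 of NB4 and 5 of HL-60 (adjusted p from 0.051 to 0.110). CXCL8 did not differ beyond its error (0.18 ± 0.26).

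The response to ATO differed between the lines for 1 gene, IL1RN (-0.75 ± 0.23, edgeR adjusted p = 0.030), beside 6.00% of all genes called in that direction and 7.11% in the other. That call was lost without any of 7 single libraries: batch 1 or 3 of untreated NB4, batch 2 of its ATO group, batch 1 or 3 of untreated HL-60, and batch 2 or 3 of its ATO group (adjusted p from 0.052 to 0.158). Before treatment, IL1RN was 25.1-fold higher in HL-60 than in NB4 (4.79 ± 0.15), while TNF was 3.46-fold (-1.64 ± 0.17), CXCL10 7.81-fold (3.71 to 18.9) and CCL2 1.69-fold (-0.66 ± 0.23) lower. Of all genes, 34.0% were called higher and 29.1% lower in this comparison. Without batch 3 of untreated NB4 the CXCL10 difference went from -2.74 to -2.14. The CCL2 call was lost without batch 2 of untreated HL-60 (-0.31, adjusted p = 0.22). CCL3 was not called (1.17 ± 0.59) but was under the batch block (1.58, edgeR adjusted p = 0.047). Summed with its copy CCL3L3 the order was the other way, with means of 0.889 CPM in untreated NB4 and 0.389 CPM in untreated HL-60.

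Levels can be compared between genes only per length, here as CPM per kilobase of exon in GENCODE v29. In NB4 with ATRA, CCL2 was at 312 ± 39 and CXCL8 at 177 ± 33 per kilobase, followed by IL1B at 9.77 ± 1.23, CXCL10 at 8.93 ± 2.85, CCL4 at 4.62 ± 0.88 and LIF at 4.10 ± 1.03. In HL-60 with both drugs, CCL2 was at 400 ± 42 and CXCL8 at 66.8 ± 8.3 per kilobase, followed by CCL3 at 8.53 ± 1.63, CCL4 at 5.47 ± 0.96 and TNF at 4.49 ± 0.38. Untreated cells had another order: TNF led in NB4 at 7.41 ± 1.02 per kilobase and IL1RN led in HL-60 at 10.6 ± 0.8, with CXCL8 next in each line at 6.23 ± 2.52 and 6.57 ± 0.60. In both lines CCL2 rose from an untreated level below that of CXCL8 to the highest of the 10 with ATRA.

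Genes of the same pathways were read from 5 lists: other chemokines, other cytokines, receptors of the 10 proteins, processing and release of IL1B and TNF, and factors that control the decay of cytokine mRNAs. With the combination in NB4, 11 of 12 tested other chemokines were higher and 1 was lower than in untreated cells (median 4.18, against 0.05 for all genes, of which 35.4% were called higher and 32.8% lower). The named ones were CCL24 (10.75 ± 0.20) and CCL22 (5.13 ± 0.18), which attract eosinophils and T cells, and CCL23 (6.13 ± 0.32). In HL-60, 8 of 12 were higher and none lower (median 2.76; 30.7% and 29.7% of all genes), among them CXCL16 (4.68 ± 0.19), CCL24 (8.08 ± 0.40) and CCL4L2 (8.19 ± 0.68). On the step from ATRA to the combination, 2 of 12 were higher and 3 lower in NB4, and 6 of 12 were higher and none lower in HL-60. Of all genes, 16.8% and 21.2% were called higher and lower on that step in NB4, close to the shares of this list, and 22.0% and 21.9% in HL-60. The copies CCL3L3 and CCL4L2 count among these: they were at -0.94 and -0.93 in NB4 and at 5.62 and 5.20 in HL-60, each called.

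Other cytokines were mixed. With the combination 9 of 15 were higher and 2 lower in NB4 (35.4% and 32.8% of all genes), with IL16 (2.24 ± 0.10), TGFB1 (1.36 ± 0.10) and IL1A (6.39 ± 0.49), the second IL-1 agonist. In HL-60 6 of 14 were higher and 5 lower (30.7% and 29.7% of all genes). CSF1, the macrophage growth factor, was 6.62 ± 0.15 higher, IL18 was 2.31 ± 0.12 higher, and TNFSF13B, the B cell survival factor, was 1.49 lower on the log2 scale (-1.49 ± 0.08). CSF1 also moved in opposite directions from ATRA to the combination, from 9.73 ± 2.84 to 3.33 ± 0.25 CPM in NB4 and from 23.1 ± 1.7 to 91.4 ± 6.5 CPM in HL-60 (-1.69 and 2.02, both called).

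Receptors of the 10 proteins made up a further list. With the combination in NB4, 7 of 10 receptor genes were higher and 1 lower (35.4% and 32.8% of all genes), with CXCR2 (3.83 ± 0.12), the receptor of CXCL8 and CXCL2, CCR1 (2.96 ± 0.10), a receptor of CCL3, and TNFRSF1B (6.43 ± 0.30), a TNF receptor. In HL-60 4 of 11 were higher and 5 lower (30.7% and 29.7% of all genes). CCR2, the receptor of CCL2, fell from 67.6 ± 0.2 CPM untreated to 3.92 ± 0.40 CPM with both drugs (-4.01 ± 0.09), while CCR1 rose by 3.08 ± 0.07. With ATRA alone CCR2 was at 56.2 ± 2.1 CPM, so in HL-60 the step to the combination lowered CCR2 (-3.79) as it raised CCL2.

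IL-1 beta can be cleaved by caspase 1 within an inflammasome, and TNF is released by ADAM17. With the combination 9 of 10 genes of this list were higher and 1 lower in NB4 (35.4% and 32.8% of all genes), including the sensor gene NLRC4 (4.81 ± 0.16), the adaptor gene PYCARD (1.78 ± 0.08) and CASP1 (2.77 ± 0.13). In HL-60 5 of 9 were higher and 2 lower (30.7% and 29.7% of all genes); NLRC4 (3.00 ± 0.08) and ADAM17 (1.64 ± 0.06) rose and the sensor gene NLRP3 fell (-2.35 ± 0.07). NLRP3 fell on the step from ATRA to the combination in both lines, from 28.0 ± 1.0 to 9.52 ± 2.06 CPM in NB4 and from 140 ± 2 to 18.2 ± 1.9 CPM in HL-60 (-1.69 and -2.90, both called).

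Of the 10 decay factor genes, 4 were higher and 4 lower with the combination in NB4, and 4 were higher and 5 lower in HL-60. Over all genes 35.4% were higher and 32.8% lower in NB4, near the shares of this list, and 30.7% and 29.7% in HL-60. In NB4 HNRNPD (-0.85 ± 0.05), KHSRP (-0.69 ± 0.06) and ELAVL1 (-0.74 ± 0.07) fell. In HL-60 ZFP36L2 (-1.18 ± 0.05) and ZC3H12D (-1.98 ± 0.11) fell, and ZFP36, whose protein destabilises TNF mRNA, rose (1.48 ± 0.09).

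**Figure D4:**
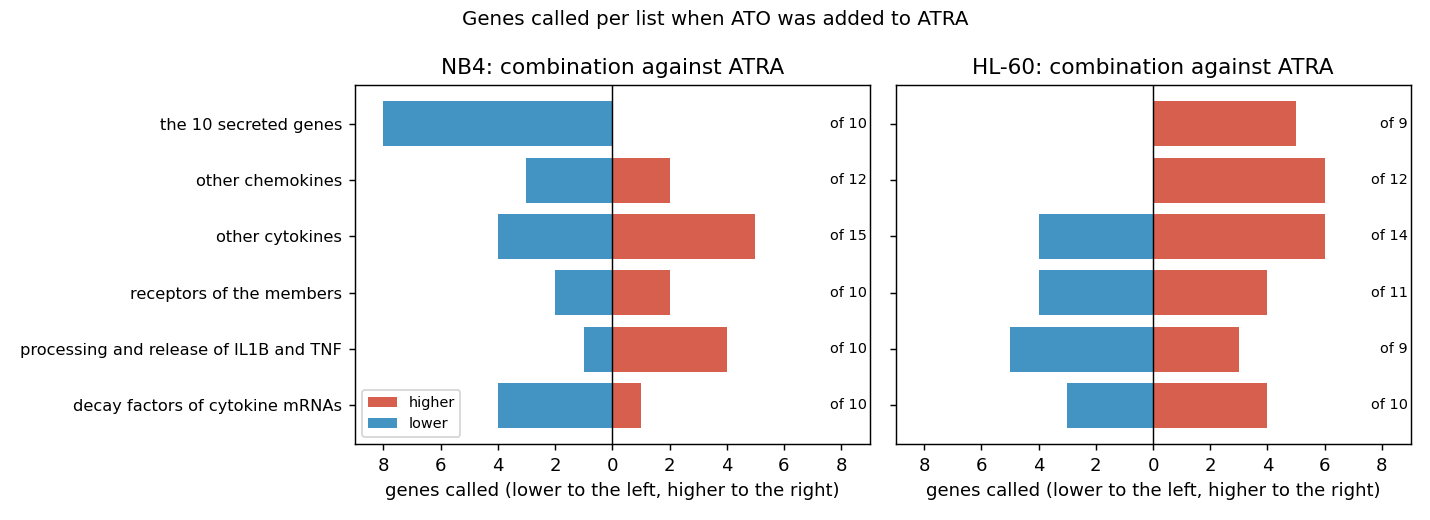
Number of genes called higher (right) and lower (left) from ATRA to the combination in each line, for the 10 secreted genes and 5 related lists, with the number tested at the right. The 10 genes have 8 lower calls in NB4 and 5 higher calls in HL-60, and the other lists have calls on both sides in each line, except for other chemokines in HL-60, with 6 higher and 0 lower.

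The genes with the most similar profiles over the 24 libraries, by Pearson correlation of log2 CPM, are given as a description; the libraries share treatments and lines, so they are not independent points. CCL2 was close to CCR1 (0.98) and RAB8B (0.98), CCL3 was closest to MSMO1 (0.94), AHR (0.92) and CSF1 (0.92), and CCL4 was closest to CXCL8 (0.96), CCL2 (0.96) and SCG2 (0.96). CXCL8 was closest to ANGPTL4 (0.98), TNFAIP2 (0.97) and TUBA1A (0.97), and CXCL10 to PGK1 (0.95), FAR2 (0.94) and AP3S1 (0.93). IL1B was closest to AQP9 (0.98), GPR35 (0.98) and S100A8 (0.97), and LIF to FFAR3 (0.97), WSB1 (0.96) and DAAM2 (0.96). TNF had the weakest best match, FOSL1 (0.89), followed by E2F6 (0.89) and ATP5F1C (0.88). IL1RN was closest to CDC45 (0.96), CHRAC1 (0.96) and DTL (0.95). Some of these names changed when log2 CPM was computed with a prior count of 0.5 instead of 2. The closest gene was then FFAR3 (0.97) for CXCL8, RILPL2 (0.95) for CXCL10 and CHRAC1 (0.96) for IL1RN. For CCL3, BTG2 (0.91) entered and AHR left.

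Marker levels moved with the treatments too, given below as ranges over libraries in the order untreated, ATRA and combination unless groups are named. The summed level of 6 promyelocyte and blast markers was 9612 to 10338 CPM in untreated NB4, 6223 to 6717 with ATRA and 2378 to 3125 with both drugs, and in HL-60 it was 3504 to 3887, 1135 to 1247 and 192 to 239. MPO made up most of the NB4 sum, and not all members went its way: mean PRTN3 was 392, 1526 and 530 CPM in NB4, AZU1 was 77.4, 107 and 30.9, and CD33 was 64.6, 79.2 and 86.2. The summed level of 7 neutrophil markers was 75.4 to 89.2 CPM in untreated NB4, 1138 to 1606 with ATRA and 1462 to 1740 with both, and in HL-60 181 to 190, 536 to 571 and 318 to 351. MMP9 went the other way, with means of 27.6, 2.90 and 1.59 CPM in NB4 and 3.04, 0.296 and 0.258 in HL-60, and CXCR2 in HL-60 was at 29.6, 35.9 and 16.7 CPM. Of 7 monocyte and macrophage markers, MRC1 was at 0 in every group, and their sum was 4.33 to 5.02, 11.5 to 16.1 and 19.6 to 25.7 CPM in NB4 and 22.1 to 25.4, 28.0 to 32.2 and 26.7 to 29.8 CPM in HL-60. Mean MARCO in HL-60 was 13.2, 13.7 and 19.2 CPM, while CSF1R (5.04, 7.06 and 3.01) and VCAN (4.22, 7.21 and 3.27) were lowest with the combination. The highest sum was in ATO-treated HL-60, at 40.7 to 41.7 CPM, with MARCO at a mean of 31.9. Markers of lymphoid and other lineages were also read. CD8A, MS4A1 and COL1A2 were at 0 in all groups, while the summed levels of the 6 T and NK cell, 4 B cell and 6 stromal, epithelial and endothelial markers ran from 33.1 to 34.8, 3.21 to 3.88 and 33.0 to 38.8 CPM in untreated NB4 to 121 to 134, 45.14 to 49.96 and 167 to 174 CPM with both drugs. In HL-60 the same sums ran from 44.3 to 51.5, 0.943 to 1.08 and 71.0 to 78.8 CPM untreated to 73.2 to 94.5, 3.01 to 4.09 and 104 to 109 CPM with both drugs. In NB4 with both drugs 1 gene held most of each sum: NKG7 had a mean of 125 CPM, CD79A of 36.4 and PECAM1 of 151. The part of these shifts in the changes of the 10 genes was not tested.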

How the data were processed

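Counts per gene were deposited by the authors as 1 table for 24 libraries; per the submitters' processing notes the tools were fastp, HISAT2 and featureCounts with genome build GRCh38, and DESeq2 for their own tests. Strandedness, annotation release and tool versions: not given in the sources used here. Among counts of 1 to 9, 74.4% were even, against 51.5% of counts of 500 or more, so mates may have been counted separately, and counts divided by 2 were tried.

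The 10 genes, the 5 pathway lists and the marker lists were chosen with earlier results of these data known. From each pathway list the text names the 3 genes with the smallest p for the combination against untreated in each line, and the copies of CCL3 and CCL4; further values of CSF1, CCR2 and NLRP3 were chosen after they were seen. Values of a few genes that these rules name are not reported here. Likeness covers genes with a group mean of at least 1 CPM (prior count of 2).

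Counts were fitted with edgeR 4.0.16 (R 4.3.3; filterByExpr, TMM, quasi-likelihood tests), in 12 libraries per line (16370 genes in NB4 and 15895 in HL-60) and in all 24 (17930 genes) for differences between the lines. The 17 comparisons, 16 planned and 1 added after seeing the data, were each adjusted over all genes. Variation between libraries (edgeR's biological coefficient) was 8.78% for NB4 and 7.00% for HL-60. The labels call the replicate number a batch. Same-batch libraries had residual correlations between -0.0812 and 0.0383 for NB4, and between -0.00807 and 0.0589 for HL-60, over 18 pairs per line, and the block was an alternative, given beside a result where it changed the call. No 2 libraries of a group agreed within sampling noise (chi-square per degree of freedom 4.77 to 39.3 over 24 pairs). Each SE was derived from edgeR's test, as the absolute log2 change divided by the square root of the F statistic. Intervals of changes were built from that SE with the residual degrees of freedom alone (8 per line, 16 for both). They are wider than intervals on the degrees of freedom of edgeR's test would be. Alternatives were DESeq2 1.42.0, scaling by DESeq2's size factors or by library totals only, no filter beyond 1 read, halved counts, the block, each library left out, and only the groups compared; likeness was repeated with a prior count of 0.5. The fits were tested on simulated counts in which few genes changed. Scaling when many genes change, as in these comparisons, was not tested that way. Tables were made with Python 3.11.15 and pandas 2.3.3, and plots with matplotlib 3.10.9. Gene positions are from GENCODE v29, in which 58437 of the table's 60655 genes were found.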

Additional observations from a re-analysis of the deposited data

Results flagged for a closer look

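Each value below is the response in NB4 minus the response in HL-60, on the log2 scale, and was singled out because the test of the difference between the lines was called (edgeR, 24 libraries).

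The step from ATRA to the combination differed by -4.97 for CCL2, -5.64 for CCL3, -5.41 for CCL4, -2.65 for CXCL8, -2.97 for TNF, -2.83 for LIF and -2.37 for IL1RN. These 7 calls held without any single library. CCL2, CCL3, CCL4, CXCL8 and TNF fell in NB4 and rose in HL-60, and LIF and IL1RN fell in NB4 and were not called in HL-60.

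The response to ATRA was larger in NB4 by 1.88 for CCL2, 2.62 for CCL3, 4.41 for CCL4, 2.84 for CXCL8 and 1.3 for IL1B. For IL1RN it differed by 3.34, through the fall in HL-60. For CXCL10 the fitted value was 9.13, which depends on the prior count because ATRA-treated HL-60 held 0 reads. No HL-60 response of this gene could be measured.

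The response to the combination differed by -3.1 for CCL2, -3.01 for CCL3, -2.69 for TNF and 0.97 for IL1RN. For CXCL10 the fitted value was 4.92, again against a group with 0 reads, and it is not read as a difference. The CCL3 value was -0.36 without batch 3 of untreated NB4. The response to ATO differed by -0.75 for IL1RN, a call lost without any of 7 single libraries.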

How the results depend on the processing

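Of 105 called results for the 10 genes, 93 kept the call in every alternative and none changed sign; of 59 uncalled results, 12 were called in some alternative. Depth limits CXCL2, CXCL10 in HL-60, LIF without ATRA, and CCL3 and CCL4 in untreated cells, where a few reads set the value. With library sizes alone the median of all genes shifted by 0.11 for ATO against untreated in NB4, 0.14 for the combination against ATRA in NB4, -0.10 for the combination against ATO in HL-60, 0.14 for the line difference in both the combination response and the added step, and -0.15 between the untreated lines. Higher genes then made up 69.0% of calls (51.9% with TMM factors), 68.4% (44.3%) and 39.6% (50.5%) in the first 3 of these, 68.8% (48.9%) for the added step, and 70.4% (54.2%) for the line difference in the ATO response, which was 44.2% with every gene with at least 1 read.

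The number of genes called for the line difference in the combination response was 5, but 3 with halved counts and 3 to 6 without single libraries. Between the untreated lines it was 4, but 2 with only the groups compared, where 7 of the 10 were tested. For the line difference in the ATO response it was 0 to 1 without single libraries. With the replicate block, the calls that changed were CXCL10 with ATO in NB4 (-0.96, adjusted p = 0.035), IL1RN for the NB4 interaction (-1.62, adjusted p = 0.052) and CCL3 between untreated lines (1.58, adjusted p = 0.047); no other call changed under it. The causes of these changes were not tested.

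Only uncalled values changed sign. With library sizes alone these were TNF with ATO in NB4 (0.016), IL1B for the combination against ATRA in NB4 (0.0091), CXCL2 with ATRA in HL-60 (-0.013) and IL1RN for the combination against ATRA in HL-60 (-0.036). The last was -0.0096 with every gene with at least 1 read and -0.0055 with halved counts. IL1RN with ATO in HL-60 was -0.00063 with DESeq2, -0.0012 with its size factors and -0.00459 with only the groups compared, and its HL-60 interaction was 0.010 with DESeq2 and 0.010 with its size factors. CXCL2 for the added line difference was -0.021 with DESeq2, -0.019 with its size factors, -0.019 with every gene with at least 1 read and -0.074 under the replicate block. Without single libraries, the ranges that crossed 0 were as follows. In NB4 with ATO they were -1.34 to 1.86 for CCL3, -0.18 to 0.021 for TNF and -2.70 to 3.98 for LIF. For the combination against ATRA they were -1.97 to 0.16 for CXCL2 and -0.19 to 0.0070 for IL1B in NB4, and -0.054 to 0.36 for LIF and -0.12 to 0.10 for IL1RN in HL-60. For the interaction they were -1.26 to 0.87 for CXCL2 in NB4, and -0.054 to 0.36 for LIF and -0.13 to 0.096 for IL1RN in HL-60. In HL-60, CXCL2 with ATRA ranged from -0.19 to 0.31, and with ATO the ranges were -0.74 to 0.13 for CCL4, -0.23 to 0.38 for CXCL2 and -0.050 to 0.078 for IL1RN. The line difference with ATO ranged from -0.085 to 0.47 for CCL2, -2.11 to 1.09 for CCL3, -0.13 to 0.45 for CXCL8, -0.54 to 0.22 for IL1B and -2.67 to 3.94 for LIF. That with the combination ranged from -1.53 to 0.25 for CCL4, -0.097 to 0.48 for CXCL8 and -1.47 to 1.76 for LIF, and that of the added step from -1.53 to 0.57 for CXCL2. Between the untreated lines the ranges were -0.063 to 0.51 for CXCL8, -0.66 to 0.095 for IL1B and -3.23 to 0 for LIF.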

Other observations

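Receptors of the 10 proteins differed between the lines before treatment: 9 of 11 tested receptor genes were higher in HL-60 than in NB4 and none was lower (median 3.19, against 0.01 for all genes). Beside this, 34.0% of all genes were called higher and 29.1% lower. TNFRSF1B was at 81.9 ± 2.9 CPM in untreated HL-60 and 0.288 ± 0.027 in untreated NB4, CCR2 at 67.6 ± 0.2 and 1.73 ± 0.25, and CXCR2 at 29.6 ± 1.4 and 2.74 ± 0.56. With both drugs TNFRSF1B was at 49.6 ± 3.8 CPM in HL-60 and 26.4 ± 1.8 in NB4, and CXCR2 at 16.7 ± 0.9 and 41.3 ± 1.8. Of the processing and release genes, 7 of 10 were higher and 1 lower in untreated HL-60 (34.0% and 29.1% of all genes), with NLRP3 at 98.3 ± 6.6 CPM against 22.0 ± 1.2 in NB4. No explanation was tested.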
